A study of Mus musculus with 10 samples.

Results

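The collagen genes of the mouse were described by the DNA methylation of their gene ends and gene bodies in embryos at E7.5. Members were the protein-coding genes on the 19 autosomes whose symbol has the form of a collagen chain (Col, a type number, the letter a, a chain number). The rule gave 42 of 20665 autosomal protein-coding genes, and 44 when the sex chromosomes were included. Reduced representation bisulfite sequencing (RRBS) reads cytosine methylation in the CpG-rich fraction of the genome. The series holds 10 embryo samples, titled control 1 to 5 and arsenic 1 to 5, and compares DNA methylation between these groups. The labels name no strain, dose, route or sex, nor whether a sample was 1 embryo or a pool. The table has 10 sets of count columns numbered 1 to 10, and 0 of them could be tied to a sample title. Values are therefore given over the 10 columns as lowest, median and highest, with no comparison of arsenic with control and no test between columns.

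Collagens are triple-helical proteins of the extracellular matrix. Fibrillar collagens form the fibrils of bone, cartilage, skin and tendon, and fibril-associated collagens (FACIT) coat these fibrils. Type IV collagens form the network of basement membranes, which separate the epiblast from the endoderm in the early embryo, and its chains are encoded by gene pairs that lie head to head and share a promoter. In mammalian embryos, CpG-rich promoters usually carry little methylation while the inside of genes is methylated, and methylation is rebuilt around implantation.

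The methylation level was the sum of methylated calls divided by the sum of coverage, in percent. An end was the 1000 bp on each side of an annotated gene end with at least 3 measured cytosine positions, and the body was the gene away from those windows. Coordinates are of mm10. Of the 42 genes, 32 had a measured end and 42 had a measured body, among 14236 and 13910 autosomal protein-coding genes. A promoter table gave the strand of 33 members and so the identity of their 5' and 3' ends. The strand of the other 9 (Col1a1, Col2a1, Col4a3, Col5a2, Col9a3, Col12a1, Col14a1, Col22a1 and Col26a1) was not given, and their ends are named by lower or higher coordinate. Where both ends were measured, the end with more positions was used, which was a 5' end in 22 genes, a 3' end in 3 and an end of unknown kind in 7. Because Col4a1 with Col4a2 and Col4a3 with Col4a4 share all positions of their ends, the 32 genes had 30 distinct end regions. The 10 genes with no measured end were Col6a1, Col6a3, Col6a4, Col10a1, Col12a1, Col19a1, Col20a1, Col22a1, Col24a1 and Col28a1. Autosomal calls ran from 72552114 to 126221282 per column, and the calls behind a member in 1 column were at least 40 for an end and 254 for a body. Bulk DNA was measured, so a level of intermediate size cannot tell methylation in part of the cells from methylation of part of the alleles.

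Promoter windows of 300 bases, from 250 before to 50 after the RefSeq start, are printed below for 6 members, since their CpG content differs as widely as the methylation at their ends. Letters are 5' to 3' on the strand of the gene, and capitals mark each CpG with a measured cytosine on either strand.
Col4a1: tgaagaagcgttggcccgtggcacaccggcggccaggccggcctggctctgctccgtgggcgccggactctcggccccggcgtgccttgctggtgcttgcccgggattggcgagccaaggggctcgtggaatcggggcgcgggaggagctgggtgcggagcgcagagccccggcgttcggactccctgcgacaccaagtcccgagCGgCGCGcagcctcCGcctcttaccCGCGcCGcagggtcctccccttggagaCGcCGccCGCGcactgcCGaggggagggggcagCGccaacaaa
Col5a3: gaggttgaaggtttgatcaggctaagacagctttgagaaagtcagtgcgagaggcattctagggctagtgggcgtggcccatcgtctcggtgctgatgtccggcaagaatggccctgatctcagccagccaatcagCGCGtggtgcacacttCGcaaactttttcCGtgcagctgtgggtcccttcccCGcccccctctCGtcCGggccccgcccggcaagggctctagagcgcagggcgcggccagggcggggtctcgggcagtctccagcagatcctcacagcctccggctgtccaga
Col8a2: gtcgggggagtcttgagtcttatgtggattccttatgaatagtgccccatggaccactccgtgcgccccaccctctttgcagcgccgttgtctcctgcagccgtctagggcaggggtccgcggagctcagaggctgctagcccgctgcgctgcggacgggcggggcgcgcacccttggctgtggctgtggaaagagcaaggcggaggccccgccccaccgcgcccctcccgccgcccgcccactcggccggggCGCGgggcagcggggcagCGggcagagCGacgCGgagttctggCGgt
Col1a2: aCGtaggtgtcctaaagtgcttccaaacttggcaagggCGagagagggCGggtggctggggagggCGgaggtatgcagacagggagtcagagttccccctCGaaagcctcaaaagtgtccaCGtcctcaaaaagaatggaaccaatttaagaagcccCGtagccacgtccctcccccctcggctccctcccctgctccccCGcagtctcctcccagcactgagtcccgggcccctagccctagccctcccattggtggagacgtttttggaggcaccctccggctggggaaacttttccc
Col9a2: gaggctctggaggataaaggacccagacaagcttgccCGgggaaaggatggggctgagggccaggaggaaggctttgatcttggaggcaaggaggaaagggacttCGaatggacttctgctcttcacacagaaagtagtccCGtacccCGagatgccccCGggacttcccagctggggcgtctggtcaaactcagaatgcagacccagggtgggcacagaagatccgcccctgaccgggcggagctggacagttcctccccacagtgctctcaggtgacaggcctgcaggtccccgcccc
Col3a1: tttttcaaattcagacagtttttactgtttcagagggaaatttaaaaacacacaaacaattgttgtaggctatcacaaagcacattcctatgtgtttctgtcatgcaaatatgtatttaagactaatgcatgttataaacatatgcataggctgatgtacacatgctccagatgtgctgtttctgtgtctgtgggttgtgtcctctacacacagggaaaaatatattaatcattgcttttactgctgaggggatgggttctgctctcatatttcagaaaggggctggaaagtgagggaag

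The Col4a1 window, chr8:11312777-11313076 on the minus strand, holds 37 CpGs, of which 13 were measured, and it also covers the first bases of Col4a2 on the other strand. Its level was 1.03%. The Col5a3 window, chr9:20815018-20815317 on the minus strand, holds 20 CpGs with 7 measured and a level of 2.09%. The Col8a2 window, chr4:126286544-126286843 on the plus strand, holds 32 CpGs with 6 measured and a level of 0.415%. In these 3 CpG-rich windows the measured CpGs were nearly free of methylation, while most of the CpGs were not measured. The windows of Col1a2 and Col9a2 had fewer CpGs and higher levels. The Col1a2 window, chr6:4505368-4505667 on the plus strand, holds 13 CpGs with 8 measured and a level of 12.6%. The Col9a2 window, chr4:121039316-121039615 on the plus strand, holds 10 CpGs with 5 measured and a level of 21.0%. The Col3a1 window, chr1:45311288-45311587 on the plus strand, holds 0 CpGs, and the positions measured at this end lie outside it.

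Collagen gene ends carried low to intermediate methylation, with a median level of 13.6% over the 32 ends. Column 10 had the lowest median over members, 12.3%, and column 8 the highest, 15.5%. All 14236 measured gene ends had a median of 2.91%. Of the 32 ends, 20 were under 20% (62.5%), against 75.6% of all genes. The ends differed from the rest of the table mainly in how few were close to 0. Under 5% stood 7 of the 32 ends, against 58.5% of all genes, and from 5 to under 20% stood 13, against 17.2%. From 20 to 80% stood 11 of the 32, against 23.1% of all genes, and 1 end, the 3' end of Col17a1, was above 80%. Among ends with 10 or more positions, 19 of 27 members were under 20%, against 83.6% of all genes, and among 5' ends of that size 15 of 19, against 89.4%. The collagen genes were not tested against the other genes, since genes are not replicates of a condition, and these shares are descriptions.

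**Figure D1:**
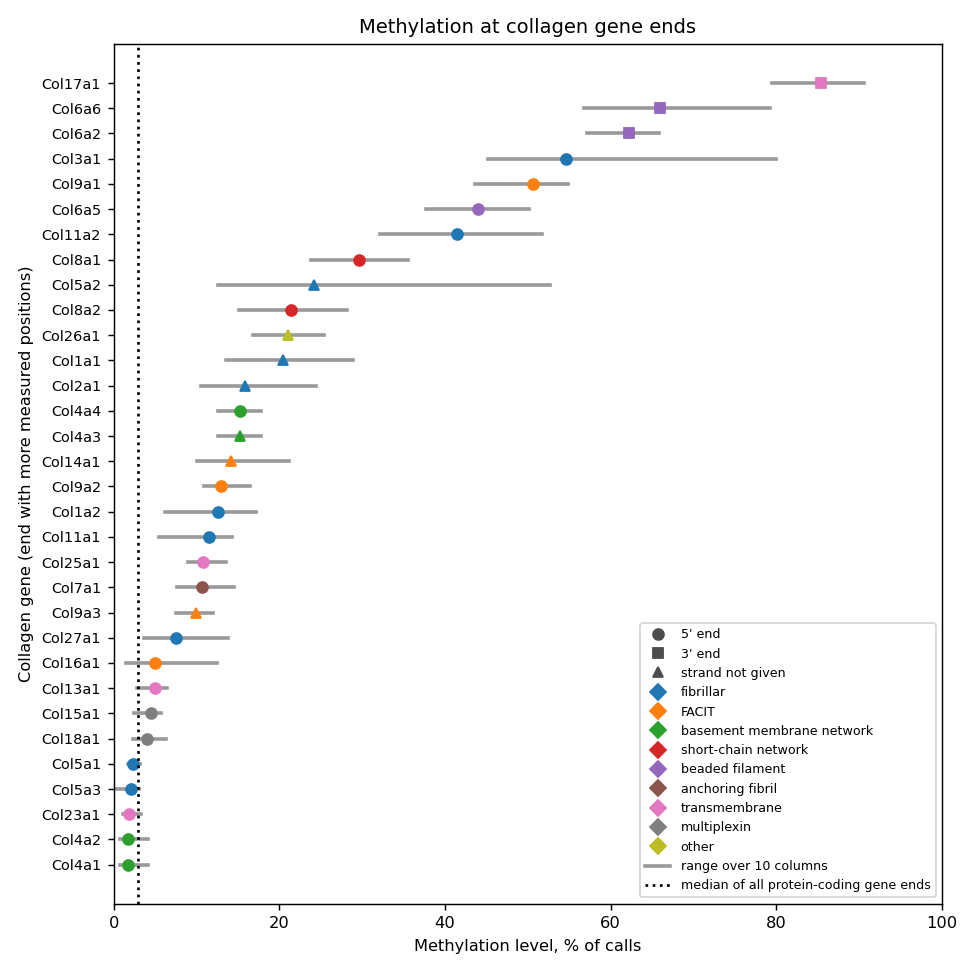
Methylation level of the used end of each of 32 collagen genes, in percent of calls on the x axis, with 1 gene per row. Points are levels over all 10 columns, grey lines the lowest to highest column, shapes the kind of end and colours the collagen class. The dotted line is the median of all protein-coding gene ends, 2.91%. Most members lie to its right, from 1.76% at Col4a1 and Col4a2 to 85.4% at Col17a1.

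Among the fibrillar collagens, 10 of 11 genes had a measured end, with a median level of 14.2%. Of the 10, 6 were under 20%, against 75.6% of all genes. Col1a1 and Col1a2 encode the chains of type I collagen, the main protein of bone and skin. The Col1a2 5' end, chr6:4504618-4506618, stood at 12.6% (95% Wilson interval 11.3 to 14.0, 10 positions, columns 6.21%, 13.6% and 17.1% as lowest, median and highest). The lower-coordinate end of Col1a1, chr11:94935224-94937224, stood at 20.5% (interval 19.6 to 21.4, 20 positions, columns 13.5%, 21.2% and 28.9%), and the columns of both type I genes overlap. With windows of 2000 bp the Col1a1 end was at 12.8%, under the 20% limit. Col2a1, the collagen of cartilage, had 2 measured ends that stood far apart. Its higher-coordinate end, chr15:98003724-98005724, was at 15.8% (interval 15.2 to 16.5, 29 positions, columns 10.6%, 16.7% and 24.4%). Its lower-coordinate end was at 56.6% (interval 54.6 to 58.5, 10 positions, columns 45.8%, 56.9% and 72.0%), and the columns of these ends do not overlap.

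Col3a1, the fibrillar collagen of vessel walls and skin, had the highest used end of its class. Its 5' end, chr1:45310538-45312538, stood at 54.7% (interval 51.5 to 57.8) on 4 positions, and its columns were 45.2%, 53.4% and 80%, with the highest value in column 2. Col5a1, Col5a2 and Col5a3 encode chains of type V collagen, which regulates the width of type I fibrils, and their ends covered a wide range. The Col5a3 end was at 2.09% (interval 1.56 to 2.79, 7 positions, columns 0%, 2.24% and 3.06%) and the Col5a1 end at 2.29% (interval 2.12 to 2.48, 63 positions, columns 1.70%, 2.19% and 3.13%). The higher-coordinate end of Col5a2 was at 24.2% (interval 21.8 to 26.9, 6 positions, columns 12.6%, 24.7% and 52.6%), so each of its columns was above each column of Col5a1 and Col5a3. Col11a1 and Col11a2 encode chains of the minor cartilage collagen of type XI. The Col11a1 5' end stood at 11.5% and the Col11a2 5' end at 41.4% (interval 40.3 to 42.5, 17 positions, columns 32.1%, 42.0% and 51.7%), whose window also holds an end of Rxrb. With windows of 500 bp the Col11a2 end was at 60.1%, on 5 positions. Col27a1, a fibrillar collagen of cartilage, had its 5' end at 7.47% (interval 7.01 to 7.96, 28 positions, columns 3.67%, 7.06% and 13.8%). Its 3' end was at 53.0% (interval 50.6 to 55.4, 6 positions, columns 35.6%, 52.7% and 68.3%), above its 5' end in every column.

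The FACIT collagens had 5 measured ends among 9 genes, with a median of 13.0% and 4 under 20%, against 75.6% of all genes. Type IX collagen, which binds to cartilage fibrils, is built from Col9a1, Col9a2 and Col9a3. The Col9a3 lower-coordinate end stood at 9.89% over 67 positions, the Col9a2 5' end at 13.0% over 31, and the Col9a1 5' end at 50.6% (interval 49.4 to 51.9, 13 positions, columns 43.6%, 51.1% and 54.9%). The columns of Col9a1 do not overlap those of the other two genes. All 13 positions of the Col9a1 end lie more than 500 bp outside the gene, so its start itself was not measured. Col14a1, a collagen of tendon and skin, stood at 14.2%, and Col16a1 at 5.02% over 11 positions in a window that also holds an end of Gm12963. With windows of 2000 bp the Col16a1 end was at 14.9%, and with at least 20 reads in each column the Col9a3 end was at 5.85%.

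The basement membrane network collagens were under 20% at both of their shared ends, as were 75.6% of all gene ends. Col4a1 and Col4a2, whose chains form the type IV network found in most basement membranes, share 62 positions within chr8:11311805-11313889, and their level was 1.76% (interval 1.58 to 1.97, columns 0.747%, 1.89% and 4.10%). Col4a3 and Col4a4, whose chains belong to the network of kidney and lung basement membranes, share 45 positions within chr1:82585921-82588034, and their level was 15.2% (interval 14.7 to 15.8, columns 12.6%, 15.4% and 17.8%). Every column of the Col4a3 and Col4a4 end was above every column of the Col4a1 and Col4a2 end. The 3' end of Col4a2, chr8:11448287-11450287, stood at 72.9% (interval 71.5 to 74.2, 10 positions, columns 67.9%, 73.1% and 76.5%), which made Col4a2 the member whose own ends differed most, by 71.1 points. With at least 20 reads in each column the shared Col4a1 and Col4a2 end was at 3.50%.

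The short-chain, beaded-filament and anchoring collagens had fewer measured ends. Col8a1 and Col8a2 encode the type VIII collagen of the corneal and vascular matrix, with 5' ends at 29.6% (6 positions, columns 23.9%, 30.7% and 35.6%) and 21.4% (interval 20.4 to 22.5, 26 positions, columns 15.1%, 22.4% and 28.1%). The 6 measured CpGs of the Col8a2 promoter window printed above, at 0.415%, lie 4 to 47 bp inside the gene. They are part of its first 500 bp, which as a whole stood at 18.6%, and the next 500 bp stood at 29.0%. The Col8a2 3' end was at 65.7% (interval 64.1 to 67.2, 13 positions, columns 60.5%, 66.3% and 73.2%). With windows of 500 bp, or with positions weighted equally, the Col8a2 5' end was at 18.6% and 18.2%, both under the limit, and with windows of 2000 bp or at least 20 reads in each column it was at 31.5% and 29.0%.

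The beaded-filament collagens of type VI, which form microfibrils around cells in muscle and skin, had 3 measured ends, of which 2 were 3' ends, the kind of end under 20% in 18.1% of all genes. The 3 ends were all above 20%. Col6a5 was represented by its 5' end at 44.0% (interval 43.0 to 44.9, 18 positions, columns 37.7%, 44.9% and 50.2%). Without the 1% most covered positions of the table the Col6a5 end was at 54.1%. It was at 51.4% with positions weighted equally and at 38.7% with at least 20 reads in each column. Col6a2 was represented by its 3' end at 62.3% (interval 61.6 to 62.9, 59 positions, columns 57.2%, 62.5% and 65.8%) and Col6a6 by its 3' end at 66.0% (interval 64.1 to 67.8, 4 positions, columns 56.8%, 64.5% and 79.2%). The 5' end of Col6a6 was at 50.9%, on 3 positions that lie more than 500 bp outside the gene, with columns from 20.8% to 81.0%. The 5' ends of Col6a1, Col6a2, Col6a3 and Col6a4 had fewer than 3 positions and no level. Col7a1, which forms the anchoring fibrils under the epidermis, stood at 10.7% at its 5' end (interval 10.1 to 11.4, 22 positions, columns 7.63%, 10.2% and 14.6%). Its 3' end was at 46.3% (interval 44.5 to 48.1, 8 positions, columns 35.2%, 45.1% and 55.6%), with no overlap between the columns of these ends.

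Transmembrane collagens, which span the cell membrane and can be shed, had 3 of 4 ends under 20%, against 75.6% of all genes. Col23a1 was at 1.89% (interval 1.71 to 2.08, 62 positions, columns 1.13%, 1.85% and 3.23%), Col13a1 at 5.00% over 52 positions and Col25a1 at 10.8% over 69. The Col25a1 end was uneven, with 53.6% over 8 positions between 500 and 1000 bp upstream and 1.03% over 21 positions in the first 500 bp of the gene. Col17a1, a collagen of the hemidesmosomes of skin, had no position at its 5' end, and its 3' end, chr19:47645341-47647341, was at 85.4% (interval 84.5 to 86.3, 11 positions, columns 79.5%, 86.1% and 90.6%). The multiplexins Col15a1 and Col18a1, which sit in basement membrane zones and give rise to endostatin-type fragments, were both under 5%, against 58.5% of all genes. The Col18a1 5' end stood at 4.06% (interval 3.84 to 4.29, 66 positions, columns 2.36%, 4.00% and 6.36%) and the Col15a1 5' end at 4.46% (interval 4.23 to 4.71, 78 positions, columns 2.50%, 4.57% and 5.75%). The Col15a1 3' end was at 57.4% (interval 56.0 to 58.8, 8 positions, columns 48.3%, 59.4% and 66.3%). All 78 positions of the Col15a1 5' end lie 500 to 1000 bp inside the gene, so with windows of 500 bp the 3' end took its place. With windows of 500 bp, Col13a1 was at 2.89%, Col18a1 at 2.50%, Col23a1 at 0.986% and Col25a1 at 1.03%. With windows of 2000 bp, Col5a1 was at 4.10%, Col15a1 at 8.37% and Col23a1 at 3.21%, and with at least 20 reads in each column Col23a1 was at 0.463%. Col26a1, which fits none of these classes, stood at 21.0% at its higher-coordinate end (43 positions, columns 16.8%, 21.2% and 25.4%) and at 16% with windows of 500 bp.

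Levels differed by the kind of end. The 23 measured 5' ends had a median of 10.8%, and 16 were under 20%, against a median of 2.17% and a share of 82.8% over all measured 5' ends. Of these, 7 were under 5%, against 65.4% of all genes, and 9 stood from 5 to under 20%, against 17.4%. The 9 measured 3' ends had a median of 62.3%, close to the 59.9% of all genes, and 7 of 9 were above 50%, against 65.3%. The exception among the 3' ends was Col23a1, at 0.516% (interval 0.420 to 0.635, 45 positions, columns 0%, 0.289% and 2.13%), where all 45 positions lie outside the gene and an end of Phykpl falls in the window. Col23a1 was the 1 measured 3' end under 20%, against 18.1% of all 3' ends.

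With distance from the 5' end, members and all genes were both lowest in the first 500 bp of the gene and higher further inside. Over the 33 members with a known strand, the level was 6.62% in the first 500 bp of the gene (287 positions in 16 genes, columns 6.0%, 6.56% and 7.89%), against 3.99% over all genes. In the next 500 bp it was 8.64%, against 7.32%, and in the 500 bp upstream it was 9.85%, against 4.72%. From 2 to 5 kb inside, members were at 46.6% and all genes at 36.8%, and more than 50 kb inside they were at 57.3% and 59.8%. Between 500 and 1000 bp upstream, members were at 52.6% (columns 45.7%, 52.3% and 58.7%), against 15.2% over all genes, but this rests on 34 positions in 4 genes, with 13 in Col9a1, 10 in Col6a5, 8 in Col25a1 and 3 in Col6a6. Col9a1 and Col6a6 had no position nearer to the start on that side, so neighbouring distances hold different genes. Between 1 and 2 kb upstream, members were at 48.2% (68 positions in 10 genes) and all genes at 33.1%.

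**Figure D2:**
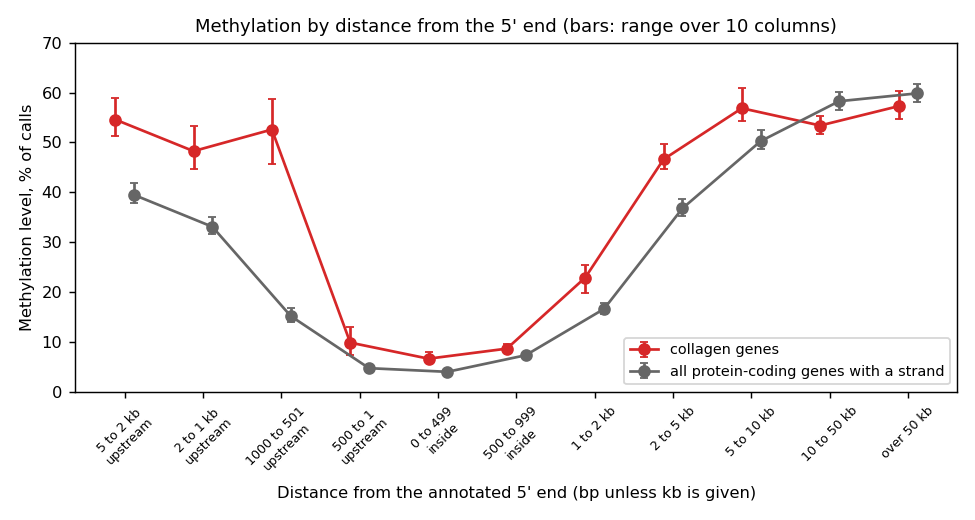
Methylation level in percent of calls by distance from the annotated 5' end, for collagen genes (red) and all protein-coding genes with a strand (grey). Points are levels over all 10 columns, and bars run from the lowest to the highest column. Both lines dip within 1000 bp inside the start, to 6.62% and 3.99%, and the collagen line is higher upstream, where few member positions were measured and neighbouring points hold different genes.

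The level of the 5' end differed with the CpG content of the promoter, though not in a steady order across members. RefSeq promoter windows of GRCm38.p6 matched 33 members, with a median of 12 CpGs per window, against 14 over all 16457 genes with a window. GC content had a median of 60% in members and 56.7% in all genes. Of the 9 members with 20 or more CpGs, all had a measured 5' end, the median level was 2.29%, and 8 were under 20%, with Col8a2 at 21.4% as the other one. Of all genes with 20 or more CpGs, 95.8% of the measured 5' ends were under 20% and the median was 1.45%. For members with 10 to 19 CpGs the median was above that of all genes of that CpG content. Their 10 measured 5' ends had a median of 14.1%, and 6 were under 20%, whereas all genes in this range had a median of 2.46% and 86.9% under 20%. The members above 20% in this range were Col6a6, Col6a5, Col11a2 and Col8a1. Below this range the order turned, since the 2 measured members with 5 to 9 CpGs, Col15a1 at 4.46% and Col11a1 at 11.5%, had a median of 7.98%, against 20.7% over all genes of that content. Col9a1 and Col3a1, with 0 CpGs in the window at the gene end, were at 50.6% and 54.7%. These levels are of the wider gene ends and not of the promoter windows themselves. No position was measured in the promoter windows of Col6a6, Col11a2, Col8a1, Col15a1, Col11a1, Col9a1 and Col3a1. The RefSeq starts of Col6a5 and Col27a1 lie 1820 and 1403 bp from their annotated ends, so their promoter windows fall outside the ends set beside them. The Col27a1 window itself was at 1.53%, and the end set beside it at 7.47%. Over the 23 genes with both values, the observed-to-expected CpG ratio and the 5' level had Pearson r = -0.65 and Spearman rho = -0.62, and over all 10359 genes r was -0.54. These correlations run across genes that share the same 10 libraries, and the share of 5' ends that were measured differs with CpG content, from 17.1% of all genes with up to 4 CpGs to 89.5% with 20 or more.

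**Figure D3:**
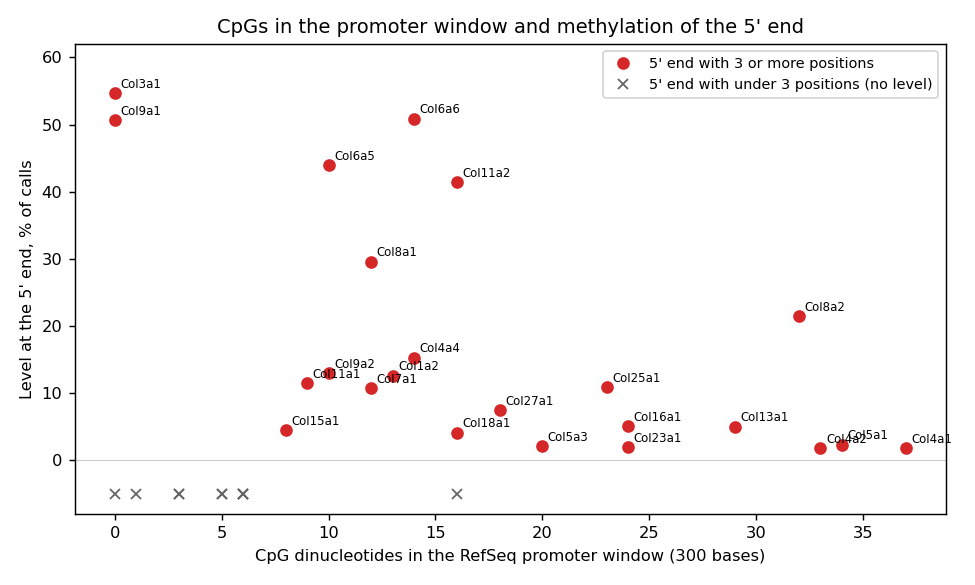
CpG dinucleotides in the RefSeq promoter window of 300 bases (x axis) and methylation level of the 5' end in percent of calls (y axis), with 1 point per collagen gene. Crosses under the axis are members whose 5' end had fewer than 3 positions and no level. Members with 20 or more CpGs lie at or under 10.8%, apart from Col8a2 at 21.4%.

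Short motifs were searched for in the same windows. GGGCGG, the GC box, was present on either strand in 20 of 33 members (60.6%) and in 47.3% of all windows. TATAAA on the strand of the gene was present in 5 members (15.2%), namely Col3a1, Col10a1, Col11a2, Col13a1 and Col17a1, and in 9.08% of all windows. CCAAT on either strand was present in 11 members (33.3%) and in 39.1% of all windows. CCGG, the site at which RRBS libraries are commonly made, was present in 20 members (60.6%) and in 63.3% of all windows. The CpG inside CCGG and GGGCGG is counted among the CpGs, and both motifs can overlap. Members with a measured 5' end had a median of 16 CpGs in the window, and members without one had a median of 5. Col3a1, Col9a1, Col15a1 and Col11a1 were measured with fewer than 10 CpGs, and Col19a1 was not, although its window has 16. Col6a2, also not measured, has 6 CpGs in the window nearest to its 5' end, which is the one counted here, and 16 in a second window.

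Collagen gene bodies stood close together, near the middle of the scale. Over 42 bodies the median was 54.4%. Single columns gave medians between 51.9% (column 7) and 57.2% (column 1), and the quartiles of the members were 50.8% and 57.0%. All 13910 measured bodies had a median of 58.2%, and quartiles of 44.4% and 71.0%. From 50 to 60% stood 26 of 42 members, against 21.1% of all genes, with limits chosen after the values were seen. Collagen genes are long, with a median body of 108 kb against 27.0 kb, and carried a median of 88.5 measured positions against 35. Among genes of 50 kb or more, 22 of 27 members stood from 50 to 60%, against 28.1% of all genes of that length. Above 50% stood 32 of 42 members, against 67.5% of all bodies. Above 60% stood 6 members, against 46.4%, and above 80% stood 0, against 8.98%. Single positions also lay in the middle, with 86.8% of 5076 body positions between 20 and 80%, against 61.5% over all genes.

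**Figure D4:**
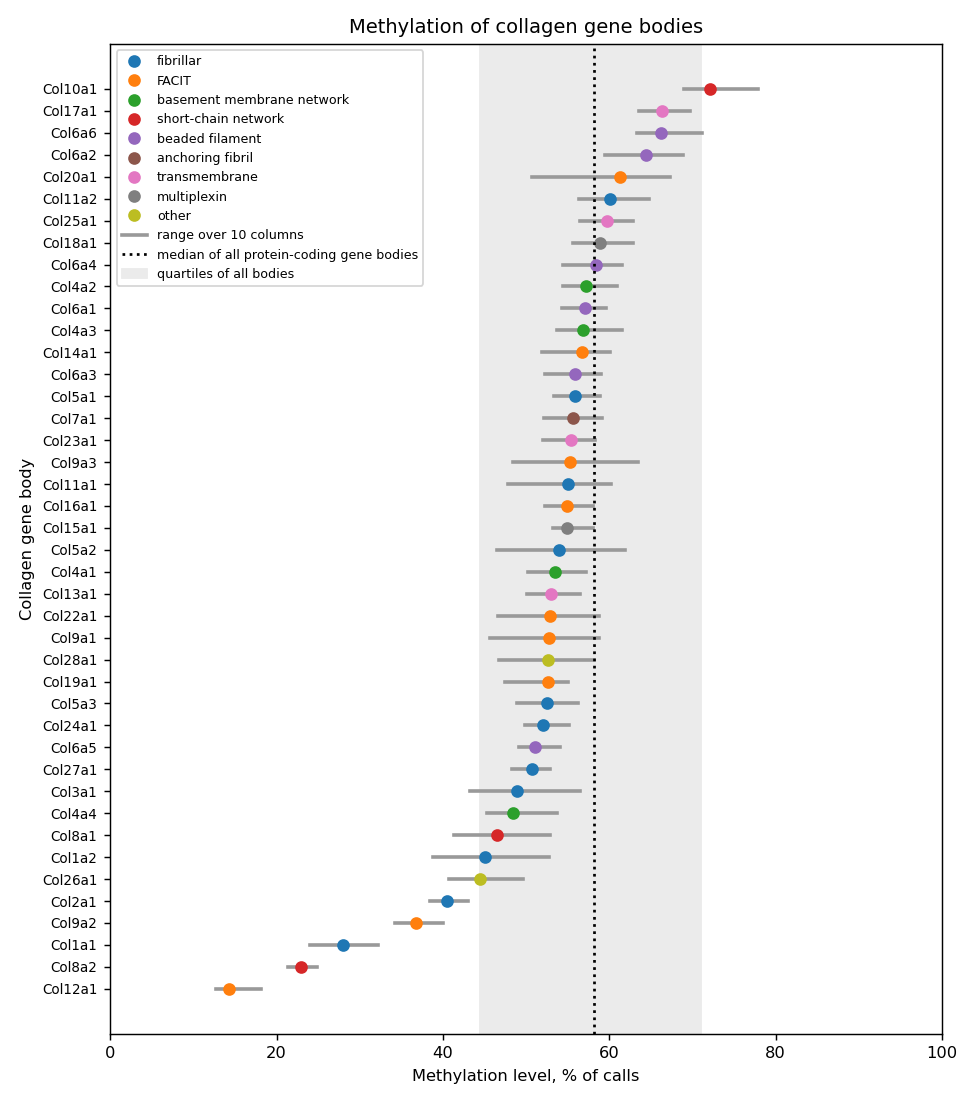
Methylation level of the body of each of 42 collagen genes, in percent of calls on the x axis, with 1 gene per row. Points are levels over all 10 columns, grey lines the lowest to highest column, and colours the collagen class. The dotted line is the median of all gene bodies, 58.2%, and the shaded band runs between their quartiles, 44.4% and 71.0%. Most members lie between 50% and 60%, and 4 lie under 40%.

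The highest bodies belonged to several classes. Col10a1, the collagen of hypertrophic cartilage, stood at 72.1% (interval 70.7 to 73.4, 13 positions, columns 69.0%, 71.3% and 77.9%). Col17a1 was at 66.3% (interval 65.8 to 66.8, columns 63.5%, 66.2% and 69.8%), Col6a6 at 66.2% (interval 65.9 to 66.6, columns 63.3%, 66.2% and 71.1%) and Col6a2 at 64.4% (interval 63.9 to 65.0, columns 59.6%, 64.4% and 68.9%). Col20a1, a FACIT collagen, was at 61.3% (interval 60 to 62.5, 11 positions, columns 50.7%, 61.6% and 67.3%), and Col11a2 at 60.1% (interval 59.7 to 60.5, columns 56.4%, 59.7% and 64.8%). The columns of Col17a1, Col6a6 and Col6a2 overlap each other, and the lowest column of Col10a1 falls inside the ranges of Col17a1 and Col6a6.

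The lowest bodies were those of Col12a1, Col8a2 and Col1a1, whose columns do not reach those of any member above 40%. Col12a1, a FACIT collagen of tendon and ligament, stood at 14.3% (interval 14.0 to 14.6, 143 positions, columns 12.7%, 14.2% and 18.1%) and was the 1 member body under 20%, against 9.12% of all bodies. Col8a2 was at 22.9% (interval 22.6 to 23.2, 152 positions, columns 21.4%, 22.4% and 24.8%) and Col1a1 at 28.0% (interval 27.6 to 28.5, 85 positions, columns 24.1%, 28.3% and 32.2%). Col9a2 was at 36.8% (interval 36.2 to 37.4, columns 34.3%, 36.6% and 40%), Col2a1 at 40.5% (interval 40.1 to 40.9, columns 38.4%, 40.4% and 43.0%) and Col26a1 at 44.5% (interval 44.2 to 44.8, columns 40.7%, 44.1% and 49.6%). The other chains of types I to IV stood between 45.1% and 57.2%, with Col1a2 at 45.1%, Col4a4 at 48.4%, Col3a1 at 48.9%, Col4a1 at 53.5%, Col4a3 at 56.8% and Col4a2 at 57.2%. By class, body medians were 52.0% for the 11 fibrillar genes, 52.9% for the 9 FACIT genes, 55.1% for the 4 network genes of type IV, 57.8% for the 6 beaded-filament genes, 57.5% for the 4 transmembrane genes and 56.9% for the 2 multiplexins. The 3 short-chain genes had a median of 46.5%.

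Stretches of low methylation inside the gene held 70.6% of the body positions of Col12a1 and 56.6% of those of Col8a2. They held 27.1% in Col1a1 and 18.4% in Col2a1. A stretch was a run of at least 10 positions, each under 20%, with gaps of at most 500 bp. There were 8 such stretches in 6 of 42 bodies, against 23.9% of all bodies with at least 1. This share is not matched for size, since collagen bodies held a median of 88.5 positions against 35. Of the 8 stretches, 0 had an end of another gene within 1000 bp, a count not made for the stretches of all genes. In Col12a1 a stretch at chr9:79718519-79719536, 1605 bp inside the higher-coordinate end, held 101 of the 143 body positions at 3.00% (columns 2.47%, 2.87% and 3.93%), and the other 42 positions were at 40.6%. In Col8a2, stretches at chr4:126296627-126296930 and chr4:126300823-126301802 held 23 positions at 1.21% and 63 positions at 4.08%, and the rest of the body was at 47.4%. In Col1a1 a stretch at chr11:94937299-94938074, which starts 1075 bp inside the lower-coordinate end, held 23 positions at 3.92%, and the rest was at 37.0%. Col2a1 had stretches at chr15:97993164-97993338, at 3.85% and overlapping the gene Gm46536, and at chr15:98002008-98002182, at 7.41%, and the rest of its body was at 50.6%. In Col27a1 a stretch at chr4:63215339-63216286 held 24 positions at 4.60%, and the RefSeq start, 1403 bp inside the annotated end, lies in it. The sixth was Col13a1, with 10 positions at 16.6% at chr10:61936989-61937088. Col9a2 and Col26a1, also among the lowest bodies, held no such stretch. Exons and introns were not analysed here.

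**Figure D5:**
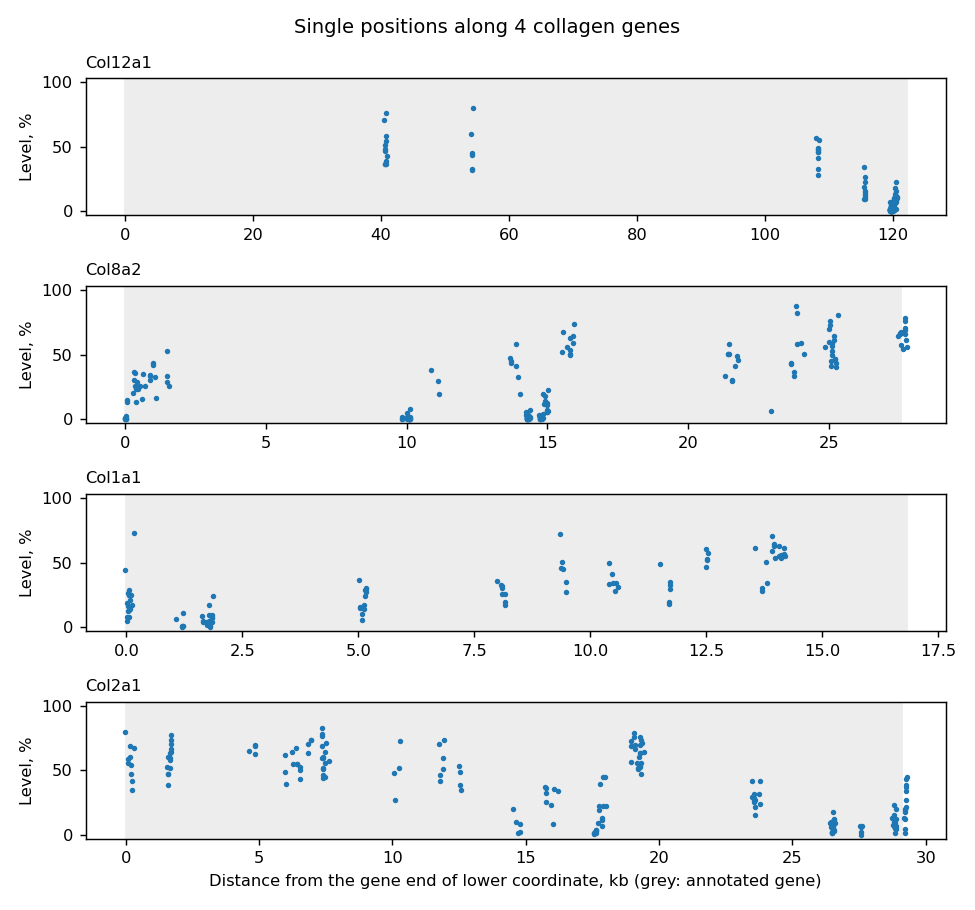
Levels of single measured positions, in percent over all 10 columns, along Col12a1, Col8a2, Col1a1 and Col2a1, against distance in kb from the gene end of lower coordinate, with the annotated gene in grey. Runs of points near 0 inside the genes are the low stretches, such as the 101 positions near the higher-coordinate end of Col12a1.

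Bodies were above ends in 30 of 32 members, against 86.9% of all genes with both values. The median difference was 37.3 points, with single columns from 33.8 to 40.2 points, and 49.9 points over all genes. Col4a2 and Col18a1 had the widest differences, 55.4 and 54.8 points. The exceptions were Col17a1, represented by its 3' end, with a body minus end difference of -19.1 points (columns -27.1 to -13.2), and Col3a1, with -5.76 points (columns -33.0 to 6.68). Col6a6, Col8a2, Col9a1 and Col6a2 had differences of 0.250, 1.49, 2.14 and 2.19 points, and these and Col1a1, at 7.55 points, had both signs among the columns.

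The columns had much the same order in collagen bodies as over all genes. Column 1 gave the highest level for 20 of 42 collagen bodies, and columns 9 and 10 for 8 each, while column 7 gave the lowest for 17 and column 6 for 9. The median over all gene bodies moved the same way, with 60.8% in column 1 and 56.7% in columns 6 and 7. The range over columns had a median of 8.73 points at collagen ends and 7.34 points in collagen bodies. For ends of like level and number of positions (level within 10 points, positions within a factor of 2) the median range was 6.08 points, and 23 of 32 members were wider than the median of their like ends. This match is loose, since it sets members near 10% beside many ends with almost no methylation and a narrow range. Like ends had a median range of 1.84 points for Col9a3, at 9.89%, and of 1.79 points for Col5a1, at 2.29%. The count of 23 therefore does not show an unusual spread at collagen ends. The widest ends were Col5a2, at 40 points on 6 positions, and Col3a1, at 34.8 points on 4. Among ends with 10 or more positions, Col11a2, Col1a1, Col2a1 and Col8a2 had the widest ranges, and for bodies 19 of 42 were wider than the median of like bodies.

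Genes that make, bind and degrade collagen were taken from lists, all of whose genes were found in the annotation. Of 33 genes for biosynthesis, processing and cross-linking, 27 had a measured end, the median was 2.89%, and 21 were under 20%, where all gene ends have a median of 2.91% and 75.6% under 20%. The lowest was P3h2, a prolyl hydroxylase, at 0.821% at an end of unknown kind. The highest was Loxl4, a lysyl oxidase-like enzyme, at 81.9% at its 3' end. Of 9 receptors, 6 had a measured end, with a median of 10.1% and 4 under 20%, from Itgb1, the common beta chain of the collagen-binding integrins, at 0.894% to Itga11, an alpha chain, at 79.8% at its 3' end. Of 17 basement membrane partners, 14 had a measured end, with a median of 2.08% and 11 under 20%. Their levels ran from the linker Nid1 at 0.727% to the laminin chain Lama1 at 73.9% at an end of unknown kind. Of 12 genes of degradation, 7 had a measured end, with a median of 4.19% and 7 under 20%. Their levels ran from the inhibitor Timp3 at 1.95% to the gelatinase Mmp2 at 17.1% at an end of unknown kind. The medians of biosynthesis, basement membrane partners and degradation thus lay nearer to that of all gene ends than the 13.6% of the collagen genes did, and the difference was not tested. Body medians of these lists were 53.0%, 55.5%, 65.4% and 52.3%, beside 54.4% for the collagen bodies and 58.2% for all bodies.

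Genes that mark other cell types or tissues were read in the same way, since a sample of an embryo at this stage could hold more than the embryo proper. The germ-line genes Dazl, Sycp3 and Mov10l1, which are methylated in somatic cells of the embryo, were at 37.8%, 52.8% and 73.0%. The trophoblast genes Cdx2, Eomes and Tfap2c were at 0.915%, 1.73% and 12.2%, and the end of Elf5, a gene whose methylation differs between trophoblast and embryo, was not measured, with its body at 48.0%. The genes of visceral and parietal endoderm had 4 measured ends with a median of 36.5%. These were Lamb1 at 1.87% (5' end), Sox17 at 16.4% and Lama1 at 73.9% (strand not given), and Sparc at 56.7% (3' end). Those of decidua (Hand2, Wnt4 and Bmp2) had a median of 1.37%, with Hand2 at 19.1% at its 3' end and 3.84% at its 5' end. The blood genes Runx1 and Csf1r stood at 75.3% and 75.7%. The strand of Tfap2c, Bmp2 and Csf1r was not given. Methylation of these genes does not give shares of cell types, and a part of other tissues in the collagen levels was not tested.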

How the data were processed

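DNA of the embryos was extracted with phenol-chloroform and made into RRBS libraries with a NEBNext kit, per the labels' protocols. Trim Galore, Bismark, methylKit and the build mm10 are named, without versions or settings, per the submitters' processing notes. Per the file headers, the counts that the authors deposited are coverage, methylated calls and unmethylated calls of each cytosine position, and they were used as raw counts. Of 2137826 rows, 4 were left out because 2 positions were listed with differing counts, and 2101417 autosomal positions were used. Coverage was at least 10 in each column, as tested on the table. Of the 10 sets of columns, all 10 were given to no sample, so the comparison of arsenic with control was not made.

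Genes came from a RefSeq table of GRCm38, and strand and promoter sequences from RefSeq windows of GRCm38.p6. Of 141267 measured positions in these windows, 141263 fell on the C of a CG. Levels were computed with Python 3.11.15, numpy 2.4.6, pandas 2.3.3 and scipy 1.17.1, and the code was tested on simulated data. Wilson intervals cover counting error only and take calls as independent. Members and gene lists were chosen with earlier results of these data known. Named in full were the 6 highest and 6 lowest ends and bodies, the 6 genes whose own ends differ most, the 4 widest ends with 10 or more positions, shared ends, the chains of types I to IV, and the highest and lowest gene of each pathway list. Alternatives changed the window, the fewest positions, the coverage minimum, the use of the most covered positions, the weighting, the columns used and the choice of end. Protein sequences were not used here.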

Additional observations from a re-analysis of the deposited data

Results flagged for a closer look

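Over the 10 columns, the highest or lowest value stood apart from the others by Dixon's criterion (95%) in 7 of 79 measures (32 used ends, 42 bodies and 5 values over all members), where chance gives about 1 in 20. At the Col3a1 end, column 2 was at 80% and the others lay from 45.2% to 63.5%, on 4 positions. At the Col5a2 end, column 9 was at 52.6% and the others lay from 12.6% to 31.3%, on 6 positions. At the Col11a1 end, column 5 was at 5.48% and the others lay from 9.74% to 14.3%. At the shared end of Col4a1 and Col4a2, which counts as 2 of the 7, column 3 was at 4.10% and the others lay from 0.747% to 2.27%. In the Col20a1 body, column 4 was at 50.7% and the others lay from 58.8% to 67.3%, on 11 positions. In the Col6a6 body, column 1 was at 71.1% and the others lay from 63.3% to 66.6%, and column 1 was also the highest column in the median over all gene bodies, at 60.8%.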

How the results depend on the processing

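The median end level of 13.6% was 12.4% with windows of 500 bp, 14.9% with 2000 bp, 12.6% with at least 10 positions, 10.8% with 5' ends only and 10.7% with windows centred on the RefSeq start, an alternative chosen after seeing the data. The median body level of 54.4% was 52.3% with windows of 500 bp. The median difference of 37.3 points between body and end was 29.8 points with windows of 2000 bp, 42.1 where 10 or more positions were asked for, 42.3 where each column had 20 or more reads, 32.8 with shared ends counted once and 43.5 with 5' ends only. These settings also change which genes are measured. With a limit of 10% in place of 20%, 11 ends were under it, and with 60% in place of 50%, 6 bodies were above it. All other alternatives run for these 5 results, including leaving out each column in turn, moved them by less than 1 SD over the columns or, for counts, within 1.5 times. The counts leave aside how many genes were measured. Ends under 20% were 20 of 26 with windows of 500 bp, 22 of 35 with 2000 bp and 19 of 27 with at least 20 reads in each column. Bodies above 50% were 26 of 42 with windows of 500 bp. Shares over all genes were not computed at these settings. Among the runs that left out a column, the largest shift of a single member was that of the Col5a2 end, at 21.5% without column 9. Windows of 500 bp brought the body of Col15a1 to 30.3%. No paired analysis was possible because the columns could not be tied to the samples or their replicate numbers. Positions with under 10 reads in any column, the ends of 10 members and the difference between the groups were not analysed here.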
